A study of Mus musculus with 27 samples.

Results

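The complement genes described here are *C1qa*, *C1qb*, *C1qc*, *C2*, *Cfb*, *C3*, *Cfp*, *C6* and *C3ar1*, 9 of the 30869 gene symbols on the Illumina MouseWG-6 BeadChip, and they were found as the probes whose symbol in the deposited intensity table equals 1 of these names. This gave 10 of 45281 probes, 1 for each gene and 2 for *C6*, and all 10 matched a RefSeq gene of the same symbol. Their transcripts were measured in monocytes (CD11b+Ly6C+), macrophages (CD11b+Ly6C-MHC-II+F4/80+) and type 1 conventional dendritic cells (cDC1s, CD11b-CD11c+CD103+) sorted from the colon lamina propria of WT and *Mbd2*-/- mice. *Mbd2*-/- mice lack the methyl-CpG binding protein Mbd2 in all their cells, are on a C57BL/6 background as are the WT littermates they were housed with, and were 8 to 22 weeks old. All mice of all 6 groups had received 2% dextran sodium sulfate (DSS), a salt that injures the colon epithelium, in the drinking water for 6 days, so no group shows the uninflamed colon. There were 5 arrays of each genotype for monocytes, 5 of each for macrophages, and 2 WT and 3 *Mbd2*-/- arrays for cDC1s. Each array pooled the cells of several mice, 1 to 5 by the deposited record and 1 to 10 by the methods, and the arrays are named here by the number in their label.

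Complement is a set of secreted and membrane proteins that tag microbes and dead cells. C1q, a hexamer of trimers made of the C1qa, C1qb and C1qc chains, starts the classical pathway when it binds antibody or apoptotic cells, while C2 and factor B supply the proteases of the convertases that cleave C3. Most circulating components come from the liver, but C1q is made mainly by macrophages and other myeloid cells, and colon myeloid cells also transcribe *C3*, factor B and properdin.

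Levels are given as log2 normalized intensity, the brightness of a probe after background correction and quantile normalization. Levels of different probes are not compared, since brightness also depends on the probe. A probe counts as detected where its detection p is under 0.05, and a gene as called where a probe had a Benjamini-Hochberg adjusted p under 0.05 over all probes tested in the comparison and a log2 difference of at least 1 either way. The 9 genes were chosen from a set of results in which genotype differences of these arrays were in view, and which of those values were used is not recorded. The genotype differences of the 9 genes are therefore given as a description without a p. Whether differences between cell types were also in view is not recorded either, and those are given with the adjusted p of the limma fit. In sorted bulk RNA, fewer cells of a type and less RNA per cell cannot be told apart.

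Mean array intensity ran from 171.5 to 353.1 over the 25 colon arrays, and between 16024 and 18608 probes were detected. The 1 probe for *Mbd2* was detected on 0 of 27 arrays, so the genotype labels could not be checked with it. The labelled cell types carried their markers: the summed linear intensity of 8 macrophage genes was 21410 to 27630 in macrophages, 8510 to 11240 in monocytes and 4583 to 6998 in cDC1s, and that of 9 cDC1 genes was 14830 to 17390 in cDC1s and 1318 to 2741 elsewhere. The sum of the monocyte genes on the array (5 of 6 listed) was 15030 to 25930 in monocytes and 4130 to 10050 in the others. *Ccr2*, a defining monocyte gene, stayed near background in every group (mean 4.30 to 4.52), as did the dendritic cell gene *Flt3* (4.32 to 4.62). Markers of cells outside the gates were present in every group, with 9 to 10 of 10 epithelial and 8 to 9 of 9 stromal genes detected on each array. Markers of T and NK cells were higher in cDC1s: their sum over 6 genes was 390.3 to 2887 there and 232.8 to 537.3 in monocytes and macrophages, and *Cd3d* averaged 8.50 and 8.23 in WT and *Mbd2*-/- cDC1s against 6.10 to 6.66 elsewhere. Their part in the lower levels of complement genes in cDC1s was not tested. The chip of an array is not labelled. Columns of the deposited table taken in sets of 6, the number of arrays on such a chip, put monocytes (sets 1 and 2) and macrophages (sets 3 and 4) in different sets, and likewise WT cDC1s (sets 1 and 2) and *Mbd2*-/- cDC1s (sets 3, 4 and 5), so set and group cannot be told apart in those comparisons.

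The genes for the 3 chains of C1q were brightest in macrophages, intermediate in monocytes and dimmest in cDC1s. *C1qb* lay at 13.54 to 13.63 on the 5 WT macrophage arrays (median 13.62), 12.30 to 12.63 on the WT monocyte arrays (median 12.48), and 8.73 and 8.92 on the WT cDC1 arrays. In *Mbd2*-/- mice the same probe lay at 13.60 to 13.70 in macrophages, 12.39 to 12.98 in monocytes, and at 9.71, 9.16 and 10.36 on cDC1 arrays 27, 28 and 30. No macrophage array overlapped a monocyte array, and no monocyte array overlapped a cDC1 array. *C1qc* followed the same order, with group means of 13.32 and 13.37 in WT and *Mbd2*-/- macrophages, 11.61 and 11.72 in monocytes, and 8.4 and 9.2 in cDC1s. *C1qa* had means of 12.15 and 11.77 in macrophages, 10.44 and 10.95 in monocytes, and 7.59 and 8.62 in cDC1s. Its *Mbd2*-/- macrophage arrays spread from 10.33 to 12.55 and reached into the monocyte range.

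**Figure D1:**
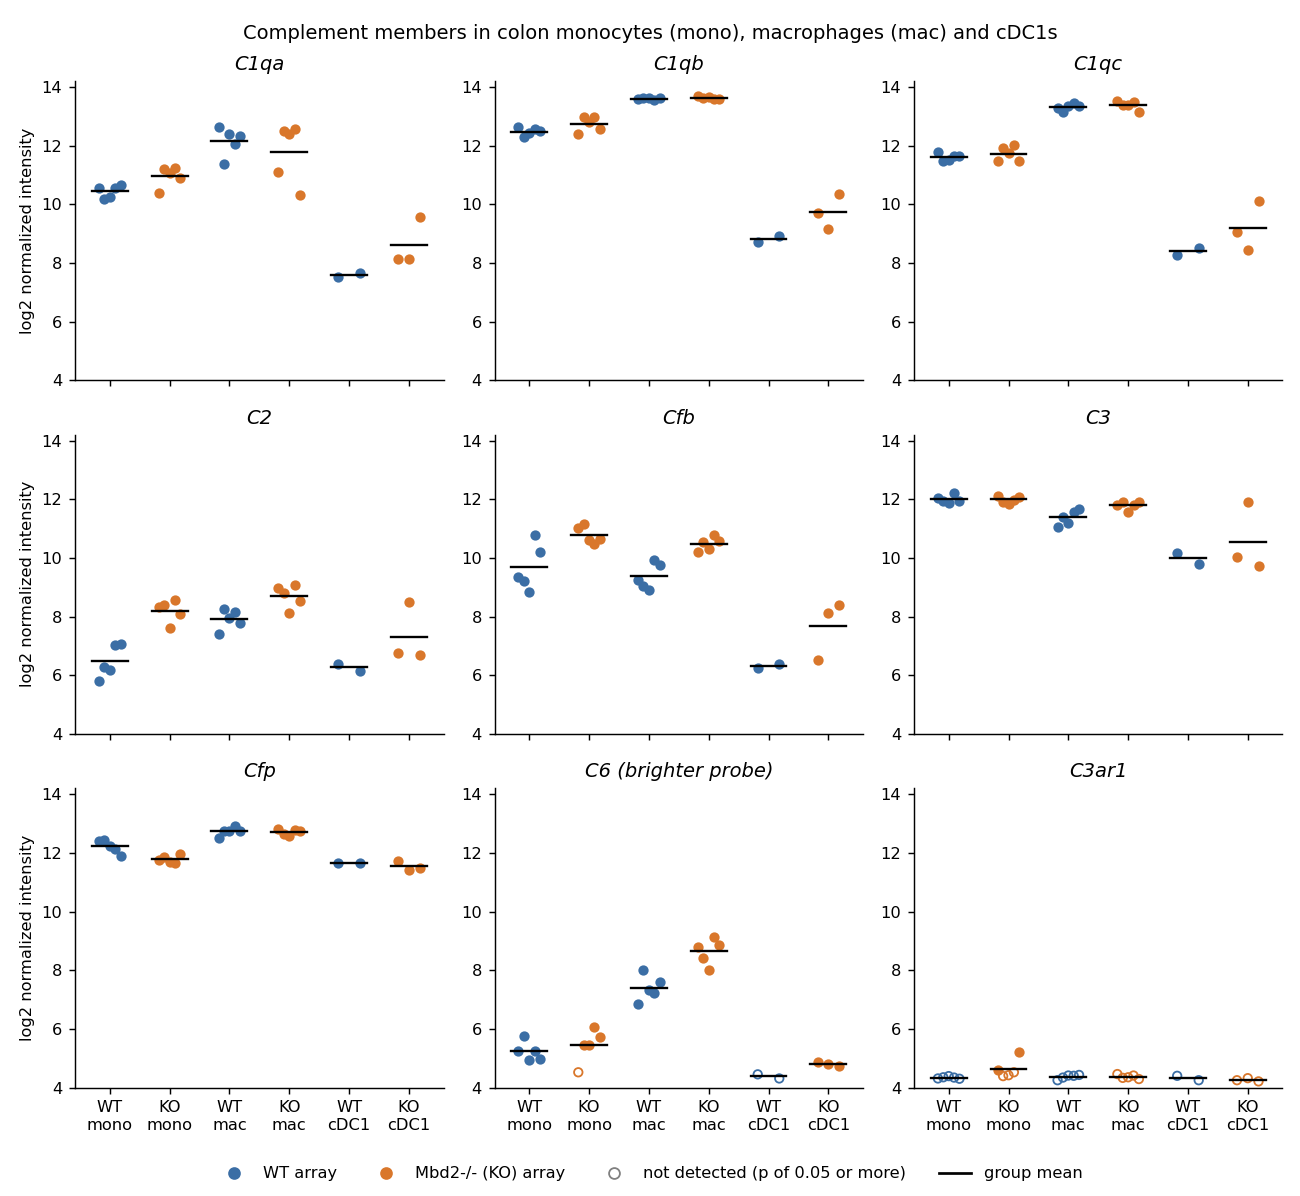
Log2 normalized intensity (y axis) of each member's brightest probe on the 25 colon arrays, by cell type and genotype (x axis). Each point is 1 array, open where the probe was not detected, and each black line is a group mean; *C1qa*, *C1qb* and *C1qc* step down from macrophages over monocytes to cDC1s, *C6* stands up in macrophages, and *C3ar1* stays near 4.3.

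Against monocytes, with the differences of both genotypes averaged, *C1qc* was higher in macrophages by 1.68 (standard error 0.14, limma adjusted p = 2.57e-09), *C1qa* by 1.26 (0.26, adjusted p = 0.000537) and *C1qb* by 1.01 (0.10, adjusted p = 9.1e-08), all on the log2 scale. All 3 were called, *C1qb* close to the limit of 1. Against macrophages, cDC1s were lower, with log2 differences of -4.55 for *C1qc*, -4.33 for *C1qb* and -3.85 for *C1qa*, which are 23.4-fold, 20.15-fold and 14.45-fold, and the largest of these 3 limma adjusted p was 1.65e-09. Against monocytes the differences of cDC1s were -3.32 for *C1qb*, -2.87 for *C1qc* and -2.59 for *C1qa*, with adjusted p of at most 6.63e-07. Within sets of columns, where WT cDC1 arrays can be set beside WT monocyte arrays, the *C1qb* difference was -3.72 and -3.60, and *Mbd2*-/- cDC1s against *Mbd2*-/- macrophages gave -3.95 and -4.45. The *C1qb* probe was among the brightest of the array in macrophages (rank 43 by mean raw intensity in WT and 37 in *Mbd2*-/-), at 61.6% to 77.3% of the brightest probe in WT. Whether brightness near the top of the scale narrowed the difference between macrophages and monocytes was not tested.

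The C1q genes lie side by side on chromosome 4, *C1qb* next to *C1qc* and *C1qc* next to *C1qa* among protein coding genes. *C1qb* and *C1qc* also moved together from array to array. Their deviations from the group means correlated at a Pearson r of 0.94 over 25 arrays, 0.95 within monocytes, 0.14 within macrophages, where both varied little, and 0.99 over the 5 cDC1 arrays; without *Mbd2*-/- cDC1 array 28 the r was 0.88. *C1qa* correlated less with *C1qb* (0.47) and *C1qc* (0.58). These points share their arrays and their normalization, and the values are a description. The promoters of this adjacent pair are shown for that reason, each 250 bases before to 50 after the start in RefSeq on assembly GRCm38.p6, on the minus strand, at chr4:136886151-136886450 for *C1qb* and chr4:136892865-136893164 for *C1qc*, with CG dinucleotides, the bases at which DNA methylation is read by Mbd2, in capitals.
C1qb: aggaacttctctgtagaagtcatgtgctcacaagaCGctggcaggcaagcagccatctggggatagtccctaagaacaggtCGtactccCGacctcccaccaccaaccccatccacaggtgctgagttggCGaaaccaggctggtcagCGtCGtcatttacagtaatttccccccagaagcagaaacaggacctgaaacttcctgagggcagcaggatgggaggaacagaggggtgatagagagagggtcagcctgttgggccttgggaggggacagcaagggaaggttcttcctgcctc
C1qc: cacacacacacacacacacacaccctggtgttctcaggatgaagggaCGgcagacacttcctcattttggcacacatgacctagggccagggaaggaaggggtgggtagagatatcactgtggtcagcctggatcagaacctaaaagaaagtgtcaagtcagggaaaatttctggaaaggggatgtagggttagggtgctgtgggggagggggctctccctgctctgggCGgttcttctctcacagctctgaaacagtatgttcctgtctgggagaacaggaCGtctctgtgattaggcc
The *C1qb* window held 6 CG dinucleotides and the *C1qc* window 3, against a median of 7 over 32851 mouse promoters of this length. Both held the motif GAGGAA, the core of sites for the myeloid factor PU.1, 1 time on either strand, and 28.3% of all promoters hold it. Neither held TTCNNNGAA, the interferon gamma activated site (8.3% of promoters), nor the core of the interferon stimulated response element, 2 copies of GAAA parted by 2 bases (3.44%). Promoters were found for 6 of the 9 genes: the windows of *C6*, *C3ar1*, *C3* and *Cfp* held 6, 5, 3 and 2 CG dinucleotides, GAGGAA occurred 2 times in *Cfp* and not in the other 3, and neither interferon motif occurred in any of them. A match or its absence in these windows is a description of the letters alone.

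C2 and factor B are the serine proteases of the C3 convertases, C2 in the classical and lectin pathways and factor B in the alternative pathway, and their genes *C2* and *Cfb* are neighbours on chromosome 17. The *C2* level was lowest in WT cDC1s, at 6.37 and 6.16, and in WT monocytes, at 5.81, 6.29, 6.18, 7.04 and 7.05 on arrays 1 to 5. WT macrophages lay higher, from 7.41 to 8.27 (median 7.96). In the WT arrays alone *C2* was called, 1.44 higher in macrophages than in monocytes (standard error 0.31, limma adjusted p = 0.00135), and in the *Mbd2*-/- arrays alone it was not, at 0.50 (0.31, adjusted p = 0.243). In WT arrays 5 of 8 members were called, all higher in macrophages, beside 5.13% of genes called in either direction, and in *Mbd2*-/- arrays 2 of 8 (*C1qc* and *C6*), beside 6.14% in either direction. Averaged over both genotypes the *C2* difference was 0.97 (0.22, adjusted p = 0.00118), just under the limit of 1. The interaction of genotype and cell type, at -0.94 (0.43) for macrophages against monocytes, was not called, so the 2 genotypes are not shown to differ in this step. *Cfb* did not differ detectably between macrophages and monocytes, at -0.30 (95% interval -0.79 to 0.20, adjusted p = 0.376). In cDC1s *Cfb* was 9.41-fold lower than in monocytes (log2 difference -3.23, adjusted p = 6.85e-09) and 7.66-fold lower than in macrophages (-2.94, adjusted p = 3.48e-08). *C2* was 2.85-fold lower in cDC1s than in macrophages (-1.51, adjusted p = 7.57e-05), and against monocytes it was -0.55 (adjusted p = 0.106). Single cDC1 arrays varied in *C2*: *Mbd2*-/- cDC1 array 27 differed from the macrophages of its set by -2.12 and array 28 by -0.09. Leaving out any 1 array kept the *C2* difference of cDC1s from macrophages at -1.81 to -1.36.

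C3 is the central protein that every pathway cleaves, and properdin, encoded by *Cfp* on the X chromosome, stabilizes the alternative pathway convertase. WT monocytes had *C3* levels of 11.88 to 12.20, those without *Mbd2* of 11.85 to 12.11, and the log2 difference of macrophages from monocytes was -0.41 (95% interval -0.78 to -0.04, adjusted p = 0.0786), which did not pass the test. In cDC1s *C3* was 3.31-fold lower than in monocytes (-1.73, adjusted p = 9.98e-07) and 2.49-fold lower than in macrophages (-1.32, adjusted p = 3.9e-05). A single array stood out. *Mbd2*-/- cDC1 array 28 had a *C3* level of 11.89 where the other 4 cDC1 arrays had 9.72 to 10.17, and it lay level with the *Mbd2*-/- macrophages of its set, 0.14 above them. *Cfp* was nearly as bright in cDC1s as in monocytes: it was 1.33-fold lower (-0.41, standard error 0.081, adjusted p = 0.000244), which did not reach a log2 difference of 1, and against macrophages the difference was -1.12 (adjusted p = 1.48e-10). Under median scaling, where the median of all genes in the comparison with monocytes was -0.145, the difference of *Cfp* from monocytes was -1.04 and passed the limit. Macrophages had more than monocytes by 0.72 (adjusted p = 1.66e-08), again under the fold limit. Among the 8 genes compared for it, the deviations of *Cfp* from its group means followed the mean raw intensity of the array most closely, at r = 0.75 over 25 arrays, and its part in these small differences was not tested.

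*C6*, which joins C5b in the membrane attack complex, had the largest fold of macrophages over monocytes among the members. Its brighter probe lay at 6.85 to 7.99 in WT macrophages (median 7.34), with the 5 *Mbd2*-/- arrays at 7.99 to 9.12 (median 8.79). Monocytes had 4.95 to 5.76 in WT and 4.52 to 6.05 without *Mbd2*. The dimmer probe lay at 6.06 to 6.62 and 7.01 to 8.30 in macrophages and at 4.37 to 5.07 in monocytes. Macrophages were higher than monocytes by 2.68 on the brighter probe (6.40-fold, limma adjusted p = 1.34e-10) and by 2.47 on the dimmer (5.55-fold, adjusted p = 3.5e-12). In monocytes the dimmer probe was detected on 2 of 5 WT and 3 of 5 *Mbd2*-/- arrays. Under the alternatives in processing the difference ran from 1.57 to 2.74 on the brighter probe and 1.18 to 2.53 on the dimmer. That of *C1qc* ran from 1.54 to 1.69. Neither probe was detected on a WT cDC1 array. Against the lowest signal that counts as detected there, the *C6* level in WT macrophages was at least 7.04-fold higher on the brighter probe and at least 3.45-fold higher on the dimmer. In *Mbd2*-/- cDC1s the brighter probe was detected on all 3 arrays, at 4.88, 4.81 and 4.72, and the dimmer on none. The 2 probes correlated at r = 0.97 over the 25 arrays and at 0.52 within groups.

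*C3ar1* encodes the receptor for the anaphylatoxin C3a. Its probe was detected on 2 of 25 arrays, *Mbd2*-/- monocyte arrays 9 (4.61) and 8 (5.21), and all other arrays lay at 4.21 to 4.52. It was too dim to be tested in all but the comparison of cDC1s with monocytes, where it differed by -0.19 (adjusted p = 0.0855). No statement on this receptor in the other cells can be made with this probe.

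Counted over the list, macrophages against monocytes called 4 of 8 tested members (*C1qa*, *C1qb*, *C1qc* and *C6*), all higher in macrophages, where 4.72% of the 13805 genes tested were called and 2.44% were called higher. Against monocytes, cDC1s called 5 of 9 (*C1qa*, *C1qb*, *C1qc*, *C3* and *Cfb*), all lower, beside 14.9% of genes in either direction and 7.54% lower. Against macrophages, cDC1s called 8 of 8, all lower, beside 14.3% in either direction and 7.32% lower. The median log2 difference of the members was 1.01, -1.24 and -2.94 in these comparisons, and that of all genes tested 0.002, -0.005 and 0. The order of the group means was macrophages, monocytes, cDC1s for *C1qa*, *C1qb*, *C1qc*, *Cfp* and both probes of *C6*. For *C3* and *Cfb* the mean of monocytes stood above that of macrophages of the same genotype, with overlapping arrays except for *C3* in WT (11.88 to 12.20 against 11.06 to 11.67). For *C2* the order within each genotype was macrophages, monocytes, cDC1s (means 7.91, 6.48 and 6.26 in WT and 8.7, 8.2 and 7.32 in *Mbd2*-/-). Across genotypes its groups mixed, with *Mbd2*-/- monocytes above WT macrophages.

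**Figure D2:**
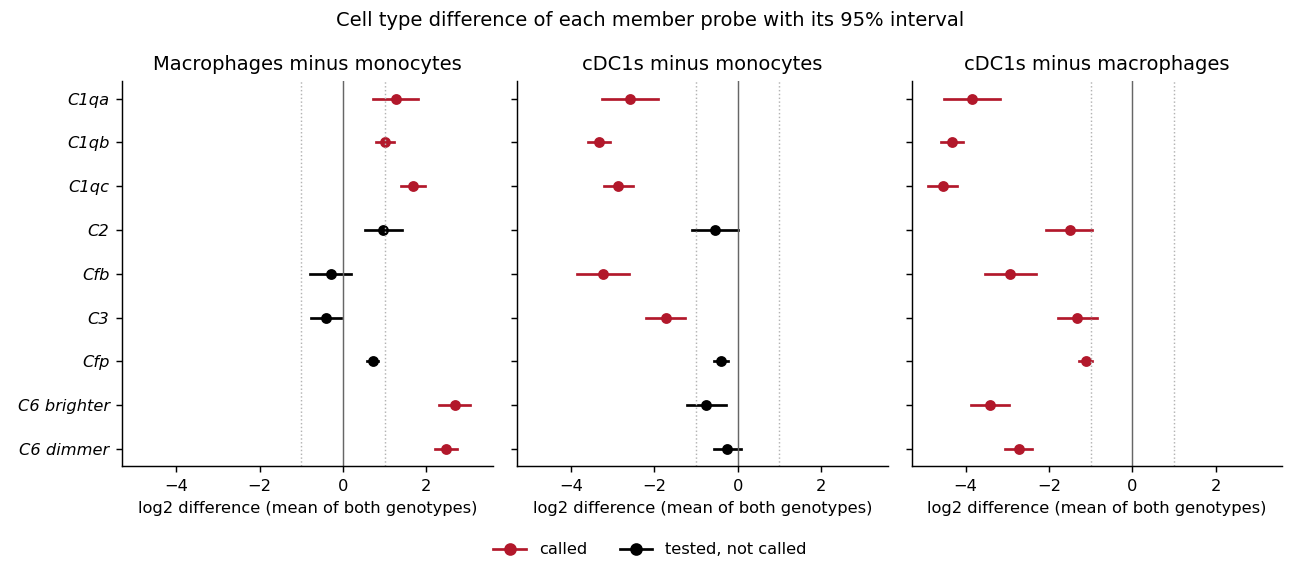
Log2 difference between cell types (x axis), averaged over both genotypes, for each member probe except *C3ar1* (y axis), in 3 panels. Points are estimates and bars 95% intervals, red where called, and dotted lines mark a difference of 1 either way; every probe lies left of 0 in cDC1s against macrophages.

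The comparison of genotypes asks whether loss of *Mbd2* changed these genes in a given cell type during DSS colitis. In monocytes the difference was largest for *C2*. Its level was 5.81, 6.29, 6.18, 7.04 and 7.05 on WT arrays 1 to 5 and 7.60, 8.56, 8.10, 8.34 and 8.41 on *Mbd2*-/- arrays 6 to 10, so every *Mbd2*-/- array was above every WT array. The log2 difference was 1.73 (standard error 0.31), or 3.31-fold. Within the sets of columns it was 2.28 in set 1 and 1.04 in set 2. *C2* was the 1 member called of 8 tested, beside 0.492% of 11992 genes, a count that the choice of the list fixed in part and from which nothing is read.

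*Cfb* in monocytes had a difference of 1.10 (0.34) and was not called. It lay at 9.34, 9.22, 8.84, 10.78 and 10.20 on WT arrays 1 to 5 and at 10.61, 10.48, 10.63, 11.01 and 11.15 on *Mbd2*-/- arrays 6 to 10. WT array 4 reached into the *Mbd2*-/- range. The 2 sets of columns gave different values: the difference was 1.94 in set 1, where the arrays did not overlap, and 0.09 in set 2, and WT arrays of set 2 were 1.36 above those of set 1 while *Mbd2*-/- arrays were 0.50 below. Within groups, *Cfb* correlated at r = 0.73 over 25 arrays with the summed monocyte markers and at -0.56 with the macrophage markers. WT monocyte arrays had a monocyte sum of 15030 to 24410, the *Mbd2*-/- arrays one of 20720 to 25930, and its part in the *Cfb* difference was not tested.

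The other members differed less in monocytes. *Cfp* was lower in *Mbd2*-/- arrays (-0.44, standard error 0.092), with 12.39, 12.43, 12.25, 12.13 and 11.90 on WT arrays 1 to 5 and 11.65 to 11.97 on the *Mbd2*-/- arrays, and the groups overlapped by 1 WT array. Under median scaling, which shifts the median of all genes in this comparison to -0.26, the *Cfp* difference was -0.66. *C1qa* was 0.51 (0.37), *C1qb* 0.26 (0.15) and *C1qc* 0.11 (0.19) higher in *Mbd2*-/- monocytes, *C6* 0.22 and 0.27 on its 2 probes, and *C3* was within 0.01. The *C1qc* and *C3* differences were below 0 under median scaling (-0.15 and -0.26). *C3ar1* was detected on no WT monocyte array and on 2 of 5 *Mbd2*-/- arrays, too few to be tested.

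**Figure D3:**
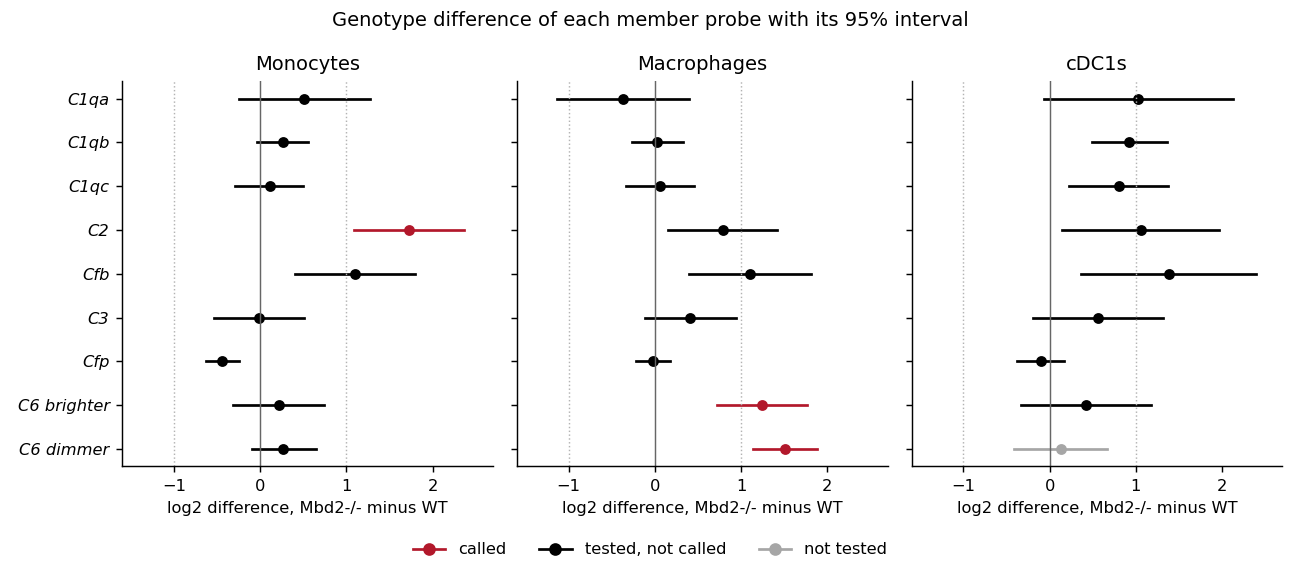
Log2 difference of *Mbd2*-/- minus WT (x axis) for each member probe except *C3ar1* (y axis) in monocytes, macrophages and cDC1s. Points are estimates and bars 95% intervals, red where called and grey where not tested; *C2* is called in monocytes and both *C6* probes in macrophages, and the cDC1 intervals are the widest.

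In macrophages the called member was *C6*, on both probes. The brighter probe lay at 6.85, 7.99, 7.34, 7.21 and 7.60 on WT arrays 11 to 15 and at 7.99, 9.12, 8.86, 8.79 and 8.43 on *Mbd2*-/- arrays 16 to 20, and the groups met at 7.99. The dimmer probe lay at 6.51, 6.28, 6.36, 6.06 and 6.62 in WT and 7.01, 8.30, 7.82, 8.30 and 7.98 in *Mbd2*-/-, without overlap. The log2 differences were 1.24 (standard error 0.25) and 1.51 (0.18), which are 2.36-fold and 2.85-fold. Within sets of columns they were 1.22 and 1.25 on the brighter probe and 1.75 and 1.36 on the dimmer. *C6* was 1 of 8 members called, beside 1.81% of 12515 genes.

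*Cfb* differed in macrophages by 1.10 (0.34), the same size as in monocytes, and was not called, although the arrays did not overlap. It was called with column position as a random block (1.08), with no background correction (1.02), with macrophages fitted alone (1.08) and with dim probes filtered at a detection p of 0.01 (1.10). WT arrays 11 to 15 had 9.23, 9.03, 8.92, 9.94 and 9.77, and *Mbd2*-/- arrays 16 to 20 had 10.30, 10.79, 10.57, 10.21 and 10.54. Its difference was 1.32 in set 3 and 0.69 in set 4, and WT arrays of set 4 were 0.80 above those of set 3. The summed monocyte markers, with which *Cfb* correlated within groups, summed to 4130 to 6885 on WT arrays, against 5848 to 7687 on *Mbd2*-/- arrays. *C2* was 0.79 (0.31) higher, with 7.41 to 8.27 in WT and 8.13 to 9.06 in *Mbd2*-/- arrays, overlapping. *C3* was 0.41 (0.25) higher. The C1q genes were level for *C1qb* (0.03) and *C1qc* (0.06), and the *C1qa* difference was -0.37 (0.37), with *Mbd2*-/- arrays 18 (10.33) and 19 (11.09) below all WT arrays, which ran from 11.37 to 12.63, and the other 3 at 12.41 to 12.55. The probes tested in macrophages whose *Mbd2*-/- arrays all lay above WT numbered 2 of 9 among the members (the dimmer *C6* probe and *Cfb*), beside 2.17% of all probes tested. In monocytes it was 1 of 9 beside 1.98%.

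**Figure D4:**
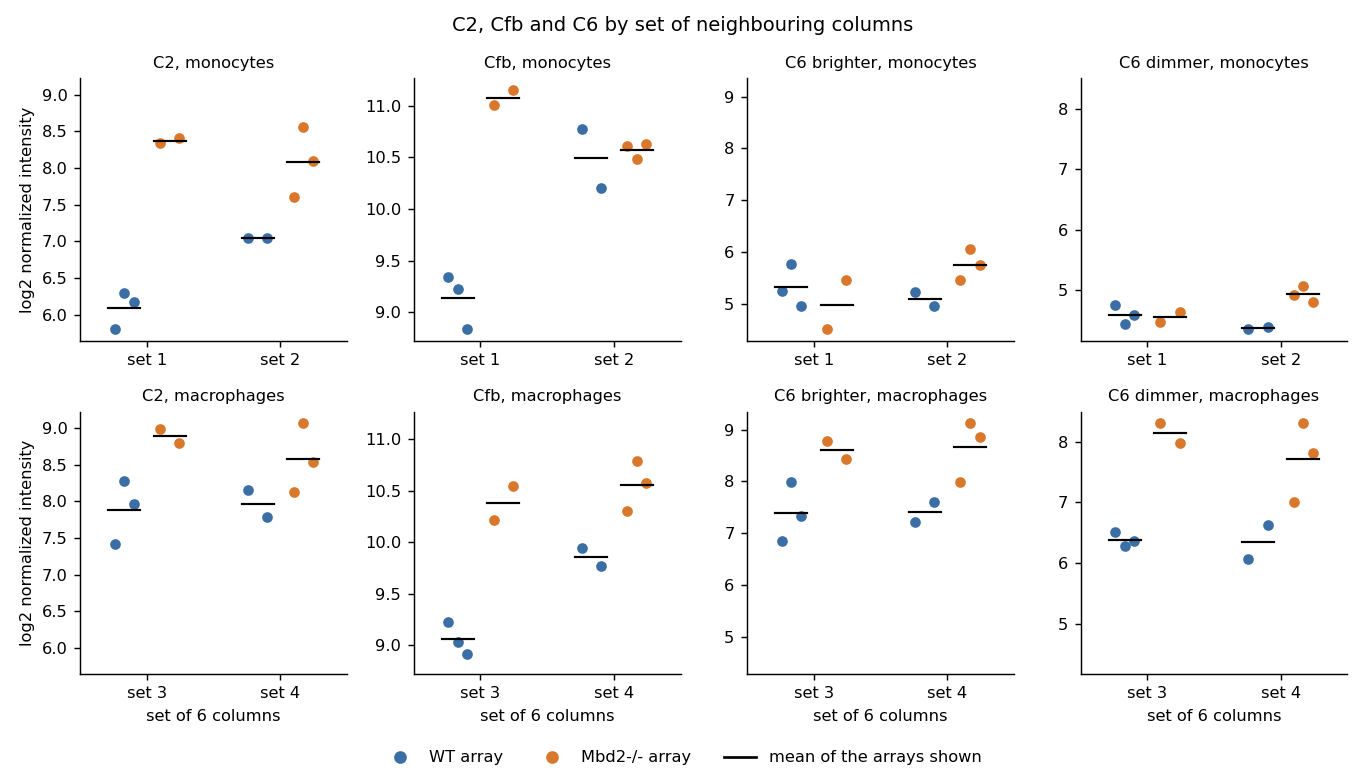
Log2 normalized intensity (y axis) of *C2*, *Cfb* and both *C6* probes in monocytes (top) and macrophages (bottom), by set of 6 neighbouring columns of the deposited table (x axis); the y range is shared within a gene and does not start at 0. Points are arrays and lines the means of the arrays shown; WT *Cfb* is higher in the second set of each cell type, while *C6* in macrophages differs by genotype alike in sets 3 and 4.

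In cDC1s none of the 8 members tested was called, beside 2.44% of 13051 genes, with 2 arrays against 3. The differences were 1.38 (0.49) for *Cfb*, 1.06 (0.44) for *C2*, 1.03 (0.53) for *C1qa*, 0.92 (0.21) for *C1qb*, 0.80 (0.28) for *C1qc*, 0.56 (0.36) for *C3*, 0.42 (0.36) for the brighter *C6* probe and -0.10 (0.13) for *Cfp*. Several of them moved with 1 array. Array 30 had the highest C1q levels, with *C1qa* at 9.56 against 8.15 on arrays 27 and 28 and 7.53 and 7.65 in WT, and *C1qc* at 10.10 against 9.05, 8.44, 8.28 and 8.52. Array 28 had the highest *C2* level, at 8.48 against 6.77 and 6.70 on the other *Mbd2*-/- arrays, and the highest *C3* level. *Cfb* was 8.13 and 8.39 on arrays 28 and 30 and 6.52 on array 27, against 6.24 and 6.37 in WT. Without array 30 the *C1qa* difference was 0.56 and that of *C1qc* 0.35, and without array 28 that of *C2* was 0.48 and that of *C3* -0.11. Leaving out any 1 array kept the difference of *Cfb* at 1.02 to 1.96, that of *C1qb* at 0.62 to 1.21 and that of the brighter *C6* probe at 0.35 to 0.50. The *Mbd2*-/- arrays lay above both WT arrays for 5 of 8 member probes (*C1qa*, *C1qb*, *C2*, *C6* and *Cfb*), beside 16.9% of all probes tested. The *C6* probe among them was not detected on either WT cDC1 array. Against the lowest detected signal there, its *Mbd2*-/- level was at least 1.165-fold higher, a difference near background.

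Marker lists differed among the cDC1 arrays. The stromal sum, with 8 to 9 of 9 genes detected, was 5311 on array 28 and 1693 and 1019 on arrays 27 and 30. It was 5304 and 2868 on WT arrays 23 and 26. On WT array 23 *C2* lay at 6.37 and *C3* at 10.17. The part of stromal cells in the *C2* and *C3* levels of array 28 was not tested. The T and NK cell sum was 2887 and 671.2 on WT arrays 23 and 26 and 1188, 2325 and 390.3 on *Mbd2*-/- arrays 27, 28 and 30. Of the 8 macrophage genes 7 had a higher mean in *Mbd2*-/- than in WT cDC1s, the direction of the C1q genes, among them *Emr1* (8.70 against 8.02), *Cd68* (10.56 against 10.24), *Fcgr1* (5.23 against 4.80) and *Mertk* (4.96 against 4.84). The other, *Cd81*, was lower (11.49 against 12.26), and being the brightest it set the linear sum, which was 4583 to 5887 in *Mbd2*-/- and 6258 to 6998 in WT cDC1s. The monocyte sum was higher too, at 7940 to 10050 in *Mbd2*-/- and 6838 to 7039 in WT cDC1s. Of its genes *Ccr2*, near background, was not higher (4.3 against 4.36). *Mertk* and *Fcgr1* averaged 9.67 and 9.80 in *Mbd2*-/- macrophages and 7.76 and 9.87 in *Mbd2*-/- monocytes, so *Fcgr1* does not set these 2 cell types apart here. The part of other cells in these differences was not tested. Genotype and set of columns cannot be told apart in cDC1s.

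The genotype difference itself was compared between cell types as an interaction, called at an adjusted p under 0.05. An interaction is made of the same genotype differences that were in view when the genes were chosen. Its calls are therefore a description from which nothing is read. Macrophages against monocytes called 0 of 8 members (0.0507% of genes) and cDC1s against monocytes 0 of 9 (2.16%). For cDC1s against macrophages 2 of 8 were called, beside 9.59% of genes. *C1qb* had a genotype difference that was larger in cDC1s by 0.89 (0.26), 0.92 against 0.03, and the dimmer *C6* probe one that was smaller (-1.38, 0.32), 0.13 against 1.51. That *C6* probe was not detected in either cDC1 group, so its difference there is one between values at background, and the brighter probe (-0.81, 0.44) was not called. The call for *C1qb* was lost under median scaling (0.31), cyclic loess (0.65) and no filter on dim probes. All 3 comparisons share their arrays.

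Beyond the 9 genes, 43 other complement genes were listed by role, of which 41 are on the array (not *C1rb* and *Clu*). Many belong to liver or plasma proteins and 16 to 18 were bright enough to be tested between genotypes. This list was chosen with earlier results of these data known, so its counts and adjusted p are a description from which nothing is read. In monocytes 2 of 17 were called, beside 0.492% of all genes tested, both of them initiation genes and both higher in *Mbd2*-/- arrays without overlap. *C4b*, the partner of C2 in the classical convertase, rose from 8.96 to 10.48 (difference 1.52, standard error 0.35, limma adjusted p = 0.0241), though its near-identical copy *C4a* may share its signal, and *C1rl*, a C1r-like protease, rose from 6.07 to 7.32 (1.26, 0.26, adjusted p = 0.00985). Each rests on its brightest probe. The other *C4b* probes were detected on 0 of 5 monocyte arrays of either genotype. A dimmer *C1rl* probe, at 4.51 in WT and 4.97 in *Mbd2*-/- monocytes, was not tested. None of the 4 terminal, 4 regulator and 5 receptor genes tested was called there. In macrophages 2 of 18 were called, beside 1.81%, both receptors: *Itgb2*, the beta chain of complement receptors 3 and 4, rose from 7.90 to 9.05 (1.15, adjusted p = 0.0298), and *Vsig4*, the macrophage receptor for C3b fragments, fell from 6.61 to 5.42 (-1.19, adjusted p = 0.00604), with overlapping arrays for each. In cDC1s 2 of 16 were called, beside 2.44%: *Cpn1*, a carboxypeptidase that inactivates anaphylatoxins, higher in *Mbd2*-/- at 5.65 against 4.64 (1.01, adjusted p = 0.0226), and the dimmer probe of *Cd93* lower at 4.87 against 5.97 (-1.09, adjusted p = 0.0485), while its brighter probe had 6.32 against 6.44. The called *Cpn1* probe was detected on 1 of 2 WT cDC1 arrays. Its other probes differed by 0.49 (limma adjusted p = 0.101, not called) and by -0.03 (not tested). The median difference of the tested genes was 0.17, -0.04 and -0.16 in the 3 cell types.

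Between cell types the counts and adjusted p of this list are likewise a description, given beside the shares of all genes called. Macrophages exceeded monocytes for 3 of 22 of these genes, beside 4.72% of all genes in either direction and 2.44% higher. They were *Fcna*, the ficolin that starts the lectin pathway (3.04, limma adjusted p = 6.18e-10), *Vsig4* (1.52, adjusted p = 2.17e-07) and *Itgax*, the alpha chain of complement receptor 4 (1.34, adjusted p = 6.74e-07). In monocytes the *Vsig4* probe was detected on 2 of 5 WT and 0 of 5 *Mbd2*-/- arrays (means 4.65 and 4.33). Its difference is therefore one from values near background. Against macrophages 6 of 26 were called in cDC1s, *C1qbp* higher and 5 lower, beside 14.3% in either direction and 7.32% lower. Of the 5, *Cd93* (-4.53, limma adjusted p = 8.21e-17), *Fcna* (-4.35, adjusted p = 1.89e-11) and *C4b* (-1.89, adjusted p = 3.06e-05) differed most. Against monocytes 5 of 24 were called in cDC1s, beside 14.9% in either direction and 7.54% lower. *C1qbp* was higher (1.93, limma adjusted p = 6.94e-05) and 4 were lower, among them *Cd93* (-3.87, adjusted p = 8.89e-16). *C1rl*, with means of 6.07 and 7.32 in monocytes, was detected with its brighter probe on no cDC1 array. Among the interactions, *C8g*, a chain of the terminal component C8, was called for cDC1s against macrophages (0.94, adjusted p = 0.049). It too is a description, since the list was chosen with earlier results known.

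Arrays of the same group also differed, and the members did not vary as 1 block. After *C1qb* with *C1qc*, the closest pair was *C2* with *C3* (r = 0.72 over 25 arrays), which came to 0.41 without *Mbd2*-/- cDC1 array 28, while the neighbours *C2* and *Cfb* correlated at 0.45 and 0.42. *C1qb* and *C3* ran opposite (-0.73, and -0.35 without that array). The stromal markers correlated with *C3* at 0.77 (0.62 without array 28) and with *C2* at 0.69 (0.48). Those of T and NK cells did so at 0.71 with *C3* (0.62) and 0.53 with *C2* (0.29), and at -0.62 and -0.64 with *C1qb* and *C1qc* (-0.40 and -0.45). The genes outside complement whose deviations followed *C2* most closely, over 16127 probes, were *Il1rl1* (0.86), *Timp3* (0.85), *Tnfsf13b* (0.84), *Mmp3* (0.83) and *Ccl11* (0.83). For *C1qa* they were *9430029K10Rik* (0.89), *Ap2s1* (0.89), *Sepx1* (0.87), *Timm44* (0.86) and *Ninj1* (0.85), and *C1qa* correlated at -0.46 with the mean intensity of the array. These values describe points that share arrays and normalization.

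**Figure D5:**
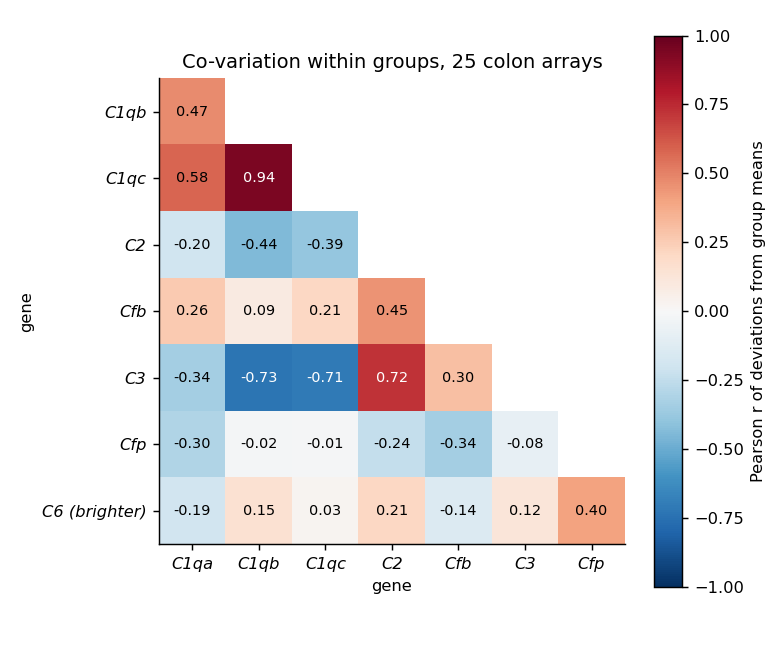
Pearson r between members (both axes, 1 probe each, without *C3ar1*) of their deviations from the 6 group means over 25 colon arrays. Red cells are positive and blue negative; *C1qb* with *C1qc* (0.94) and *C2* with *C3* (0.72) are the highest, and *C1qb* with *C3* (-0.73) the lowest.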

How the data were processed

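Per the labels and methods, RNA of sorted cells was labelled and hybridized to Illumina MouseWG-6 BeadChips, and the submitters' processing notes name lumi and limma without versions. The authors deposited a single file of intensity values, not normalized, with 45281 probes on 27 arrays, and beside each intensity a detection p-value against the negative control probes, the number of beads and the bead standard error, 2 other deposited columns. The number of beads was 17 to 57 for the member probes. It holds 3 further signal columns of no sample, which were not used. Sorted cells are from pooled mice, and the labels do not say which arrays share mice or an experiment, so p-values measure the spread between these arrays.

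From these values the background was removed here with limma's nec, a normexp fit on 936 negative controls (offset 16). Quantile normalization over the 25 colon arrays and a log2 transform followed. One limma model over 6 groups was fitted (limma 3.58.1, R 4.3.3), and p-values were two-sided and adjusted by Benjamini-Hochberg over the probes of a comparison. The probes tested in a comparison were those whose detected arrays, among the groups compared, were no fewer than the size of the smallest group. Precision is limited by the number of arrays. The fit was tested on simulated data with 200 changed probes. Of those changed by a log2 of 1, 38.5% to 52% were called, and 40% in the genotype comparison of cDC1s. A call also needs an estimate of at least 1, so the fold limit holds this share down at a change of 1. By adjusted p under 0.05 alone, 85%, 77% and 58.5% were found between genotypes in monocytes, macrophages and cDC1s, and 86% to 90% between cell types. At a change of 2, 91.5% to 99% were called. Unchanged probes made up 4.97% to 9.38% of those with an adjusted p under 0.05, the most in cDC1s against macrophages. For a probe detected on no array of a group, the fold is a lower bound against the lowest detected signal of each array.

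The 9 members, the other complement genes and the marker lists were chosen with earlier results of these data known. The text names all members, the other complement genes called between genotypes, the 3 with the largest cell type difference, and the 5 genes most like *C1qa* and *C2*. Alternatives were no background correction, median scaling, cyclic loess, dim probes kept or filtered at a detection p of 0.01, adjusted p under 0.01, column position as a random block, separate fits per cell type, and each array left out. For macrophages against monocytes, pairs of arrays whose numbers differ by 10 were also fitted as a random block. Differences within sets of columns and correlations without single arrays were added after the data were seen. A result on 1 other complement gene is not reported here.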

Additional observations from a re-analysis of the deposited data

Results flagged for a closer look

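*C3* in *Mbd2*-/- macrophages had 1 low array: array 16 had a level of 11.55, and the nearest of the other 4 had 11.80. *C3ar1* in *Mbd2*-/- monocytes had 1 high array, array 8 at 5.21, with the next at 4.61. These were 2 of 40 groups of arrays examined, and chance alone sets about 1 in 20 apart.

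The genotype difference of 2 genes differed between cDC1s and macrophages in the interaction of the fit, *C1qb* by 0.89 (standard error 0.26) and the dimmer *C6* probe by -1.38 (0.32). The second rests on a probe that was not detected in cDC1s. Genotype differences were in view when the genes were chosen, so both calls are a description.

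Splenic CD4 T cells, taken 6 weeks after transfer, 1 array per genotype and outside the comparisons above, showed signal for 8 of the 10 member probes on both arrays. The C1q genes were among them, with *C1qa* at 6.35 in WT and 8.49 in *Mbd2*-/- T cells, *C1qb* at 7.66 and 9.14, and *C1qc* at 7.47 and 8.96. *C3* went the other way, at 7.69 and 5.90. There is no replicate, and the 2 values differ between libraries, not between conditions.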

How the results depend on the processing

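All 3 counts of members called between cell types (4, 5 and 8) were within 1.5 times their value under the alternatives that changed the processing, although with median scaling *C1qb* lost its call (0.92) and *C2* gained one (1.03) in macrophages against monocytes. Leaving out 1 array gave 3 to 5 members for macrophages against monocytes (no *C1qb* without WT array 2 or *Mbd2*-/- array 8 or 9 of the monocytes or *Mbd2*-/- macrophage array 20, and *C2* added without WT array 4 or 5 or *Mbd2*-/- array 7 of the monocytes or *Mbd2*-/- macrophage array 16, while *C2* took the place of *C1qb* without WT macrophage array 11), and always 5 and 8 for cDC1s against monocytes and macrophages. In monocytes the genotype count of 1 (*C2*) became 2 (*C2* and *Cfb*) without WT array 4 (1 to 2 over the arrays). In macrophages the count of 1 (*C6*) became 2 (*C6* and *Cfb*) with no background correction, dim probes filtered at a detection p of 0.01, column position as a random block, macrophages fitted alone, and without WT array 15 (1 to 2). In cDC1s the count of 0 became 1 without WT array 26 (*C1qb*) or *Mbd2*-/- array 27 (*Cfb*) and 2 without *Mbd2*-/- array 28 (*C1qb* and *C1qc*), so 0 to 2. For the genotype difference in cDC1s against macrophages, the 2 calls became 1 (*C6*) with median scaling and with no filter, and 0 with cyclic loess and at an adjusted p under 0.01, and 0 to 3 when 1 array was left out, 0 without WT cDC1 array 23 and 3 without *Mbd2*-/- cDC1 array 28. Against monocytes the interaction count of 0 was 1 (*C6*) for macrophages with no background correction and 0 to 1 over the arrays (1 without *Mbd2*-/- macrophage array 16), and 0 to 1 for cDC1s (*C1qb*, without *Mbd2*-/- cDC1 array 28). The *C2* interaction in cDC1s against macrophages, 0.27, reversed to -0.34 with median scaling and ranged from -0.31 to 0.58 without 1 array, and that of the dimmer *C6* probe against monocytes, -0.14, reversed to 0.11 with cyclic loess. The cause was not tested. Median scaling moved the median of all genes to -0.26 in monocytes and -0.367 in cDC1s, and there the genotype differences in cDC1s were 0.67 for *Cfb*, 0.37 for *C1qa* and *C2*, 0.34 for *C1qb* and 0.19 for *C1qc*. No analysis paired by replicate number was possible, because the groups share none. The consensus correlation was 0.03 for column position and 0.123 for pairs of monocyte and macrophage arrays whose numbers differ by 10. Probes near background (*C3ar1*, and *C6* outside macrophages) give no measure of a low level.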
